A study of Mus musculus with 18 samples.

Results

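Mouse oocytes of 12-month-old females that had matured in vitro to metaphase II together with MSC were compared with immature oocytes of the same age over all genes. The co-cultured group held 3 oocytes (MSC-IVM-MII-12m) and the immature group, at the germinal vesicle stage, held 3 oocytes (GV-12m), which made 6 of the 18 single-oocyte libraries of the series. Membership followed the source label of each oocyte, and no measured value was used to choose it. All animals were wild-type C57BL/6 mice, per the labels. The co-culture ran overnight according to the series' design text. The labels do not spell out MSC and give neither its source nor the culture medium. The other 4 groups, also of 3 oocytes each, were matured oocytes of the same age without co-culture (IVM-MII-12m), and co-cultured, plainly matured and GV oocytes of 6-week-old mice (MSC-IVM-MII-6wk, IVM-MII-6wk, GV-6wk). Maturation and co-culture both separate MSC-IVM-MII-12m from GV-12m oocytes, so their parts in a difference cannot be told apart in this comparison, and values of the IVM-MII-12m oocytes are set beside the results further on.

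A GV oocyte is arrested in the first meiotic prophase and holds a store of mRNA built up while the oocyte grew. When meiosis resumes, transcription is already silent. The oocyte then changes its mRNA pool by lengthening the poly(A) tails of some stored messages, which are translated, and by shortening the tails of others, which are degraded. At metaphase II it arrests again until fertilisation. Cytoplasmic polyadenylation elements (CPEs), U-rich motifs near the 3′ end, are known to mark many of the messages whose tails are lengthened.

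Each oocyte was sequenced with SMART-seq2, which copies RNA from its poly(A) tail, so a message that lost its tail and a message that was lost cannot be told apart. In the same way, a message whose tail was lengthened cannot be told from one that became more abundant. Before library preparation the nucleus was spun down and the supernatant was taken, per the labels' protocols, so RNA retained in the GV nucleus may be missing. The labels name no animal, litter or culture dish. Each group therefore counted as 1 sample, no test was made between the groups, and the SD after each ± describes the spread among 3 oocytes. Levels are CPM, a gene's counts relative to the scaled total of its library, and so are relative amounts. A difference is the mean log2(CPM + 1) of the MSC-IVM-MII-12m oocytes minus that of the GV-12m oocytes, and a gene was counted as higher or lower from 2-fold, which is 1 on this scale.

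Total counts ran from 1914072 to 7369629 in MSC-IVM-MII-12m oocytes and from 4679473 to 9193559 in GV-12m oocytes. Between 8612 and 11361 genes had a count in co-cultured oocytes, against 14706 to 16036 in GV-12m oocytes. With every library thinned to 1914072 counts these ranges were 8612 to 10786 and 13067 to 15016, so the groups still did not overlap. Correlations of log2 levels over the 12037 measured genes were 0.764 to 0.818 between oocytes of the MSC-IVM-MII-12m group, 0.77 to 0.92 within GV-12m and 0.452 to 0.727 across the groups. All 18 oocyte marker genes were measured. The summed level of 29 cumulus and granulosa cell markers was 77.0 to 204 CPM in MSC-IVM-MII-12m oocytes and 155 to 2829 CPM in GV-12m oocytes. The high end is GV-12m oocyte 3, the highest of the 6 oocytes for 19 of these markers, and 20 of the 29 were at 0 in all co-cultured oocytes. Mesenchymal stromal markers summed to 17.9 to 42.3 CPM in co-cultured and 23.7 to 68.2 CPM in GV-12m oocytes, with 10 of 20 at 0 in every co-cultured oocyte. Blood and immune markers summed to 6.65 to 27.8 CPM in co-cultured and 55.9 to 384 CPM in GV-12m oocytes, with 9 of 15 at 0 in every co-cultured oocyte and C1qb supplying most of the GV signal. Further libraries stand apart in other ways: MSC-IVM-MII-12m oocyte 1 is the shallowest, and MSC-IVM-MII-12m oocyte 2 had relatively more of the long transcripts.

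The balance between the groups leaned towards lower relative levels after maturation with MSC. Among the 12037 measured genes, 5017 were at least 2-fold lower in MSC-IVM-MII-12m oocytes (41.7%) and 2013 were at least 2-fold higher (16.7%). The median difference was -0.60. Every co-cultured oocyte lay below every GV-12m oocyte for 3366 of the lower genes (28.0% of all measured), and above for 1203 of the higher genes (9.99%). A set of 938 measured genes had no count in any co-cultured oocyte, 84 of them with a mean of at least 20 CPM in GV-12m oocytes. The opposite case, no count in any GV-12m oocyte, held for 37 genes, and 0 of these reached a mean of 20 CPM in co-cultured oocytes. Sample titles carry a prefix that the labels do not explain. Both prefixes of the co-cultured oocytes also occur in GV-12m, while GV-12m oocyte 1 has a prefix of its own. Averaged within the shared prefixes, which leaves that oocyte out, 45.5% of the genes were lower and 14.5% higher.

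**Figure D1:**
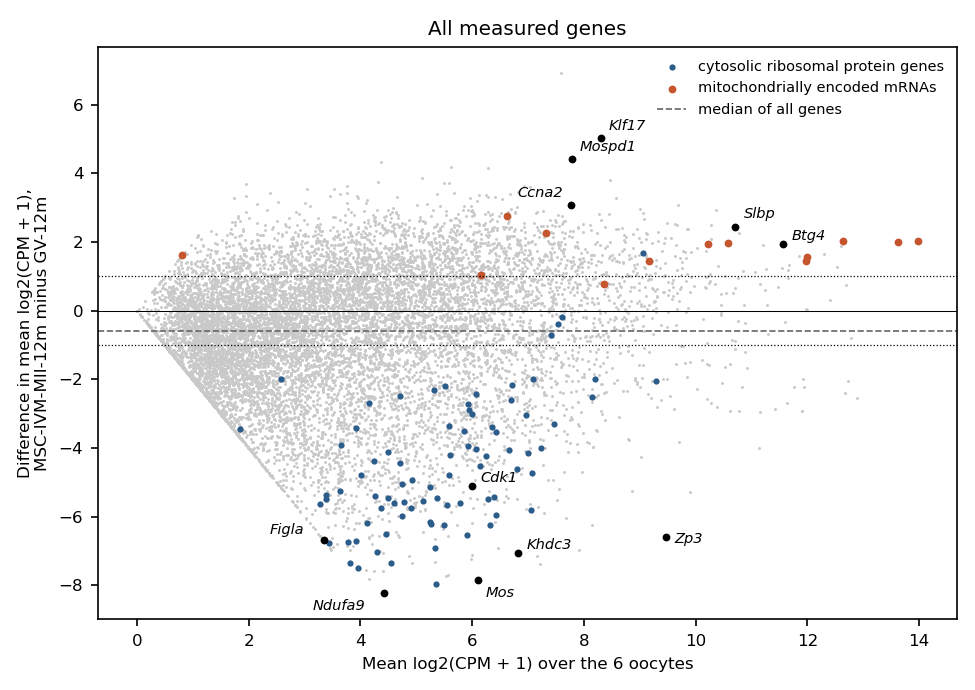
Each point is 1 of 12037 measured genes, with the mean log2(CPM + 1) of the 6 oocytes on the x axis and the difference MSC-IVM-MII-12m minus GV-12m on the y axis. Dotted lines mark 2-fold, the dashed line the median of all genes at -0.60; cytosolic ribosomal protein genes lie mostly below -1 and mitochondrially encoded mRNAs mostly above 1.

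The largest lower differences included messages for respiratory chain subunits and ribosomal proteins and that of the meiotic kinase Mos. Ndufa9, a subunit of respiratory complex I (chr6:126821721-126849136 in GRCm38), was at 0.89, 0 and 0 CPM in MSC-IVM-MII-12m oocytes and at 831, 413 and 145 CPM in GV-12m oocytes. Its summed count was 2 (exact Poisson 95% interval 0.242 to 7.22) against 7994 (7820 to 8171), an interval that covers counting error only. Its difference of -8.22 was the lowest of all measured genes. No oocyte of the co-cultured group came near the GV range.

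Mos encodes the kinase that activates the MAPK cascade. Its level was 12.0, 0.277 and 4.54 CPM in MSC-IVM-MII-12m oocytes against 1968, 1054 and 545 CPM in GV-12m oocytes (difference -7.85). Tuba1b, an alpha-tubulin, was at 0, 0.692 and 0 CPM in co-cultured and at 309, 169 and 360 CPM in GV-12m oocytes (-7.81). Lsm10, a part of the U7 particle that processes histone mRNA, averaged 8.997 ± 15.5 CPM against 763 ± 434 CPM (-7.72). In Lsm10 the residual signal came almost wholly from co-cultured oocyte 3, with 26.9 CPM. The 15 genes with the largest lower differences, which ran from -8.22 to -7.23, also held the splicing protein Snrpd2, the cytochrome oxidase subunit Cox7c, the ATP synthase subunit Atp5o, the uridine phosphorylase Upp1 and the ribosomal protein genes Rps4x, Rpl23a, Rps19 and Rpl3. For messages this close to 0 the size of the difference follows the pseudocount: that of Ndufa9 was -9.03 with a pseudocount of 0.5 and -6.15 with 5.

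At the other end stood mRNAs with low relative levels in GV-12m oocytes and high relative levels after maturation with MSC. Klf17, a Krüppel-like transcription factor known from oocytes and early embryos (chr4:117757836-117765648), was at 1001, 4487 and 1288 CPM in MSC-IVM-MII-12m oocytes and at 32.4, 64.3 and 76.0 CPM in GV-12m oocytes. The ratio of the group means was 39.2 and the difference 5.02. Mospd1, which encodes a membrane protein with a major sperm protein domain (chrX:53344598-53370502), was at 1210, 1238 and 704 CPM in co-cultured oocytes against 28.4, 61.9 and 57.3 CPM in GV-12m oocytes (ratio 21.3). The lowest co-cultured oocyte lay far above the highest GV-12m oocyte for both genes.

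Ccdc6, a coiled-coil protein known as a fusion partner of the RET kinase, was at 813, 3716 and 333 CPM in MSC-IVM-MII-12m oocytes and at 16.7, 55.0 and 105.01 CPM in GV-12m oocytes (difference 4.41). Riok1, a kinase of small ribosomal subunit maturation, averaged 1564 ± 1137 CPM against 100.1 ± 37.8 CPM (3.79). Igf2bp3, an RNA-binding protein that stabilises mRNAs, averaged 181 ± 102.6 CPM against 11.5 ± 2.47 CPM (3.73), and Esco1, an acetyltransferase of cohesin, 199.9 ± 127 CPM against 17.7 ± 17.2 CPM (3.73). Deptor, an inhibitor of mTOR, averaged 587 ± 520 CPM against 40.1 ± 19.2 CPM (3.61). Co-cultured oocyte 2 held the highest level of each of these and of Klf17. Without it the differences were 4.36 for Klf17, 3.47 for Ccdc6, 3.24 for Riok1, 3.31 for Igf2bp3, 3.25 for Esco1 and 2.93 for Deptor. Their direction could not turn, because these genes were chosen among those with no overlap between the groups.

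**Figure D2:**
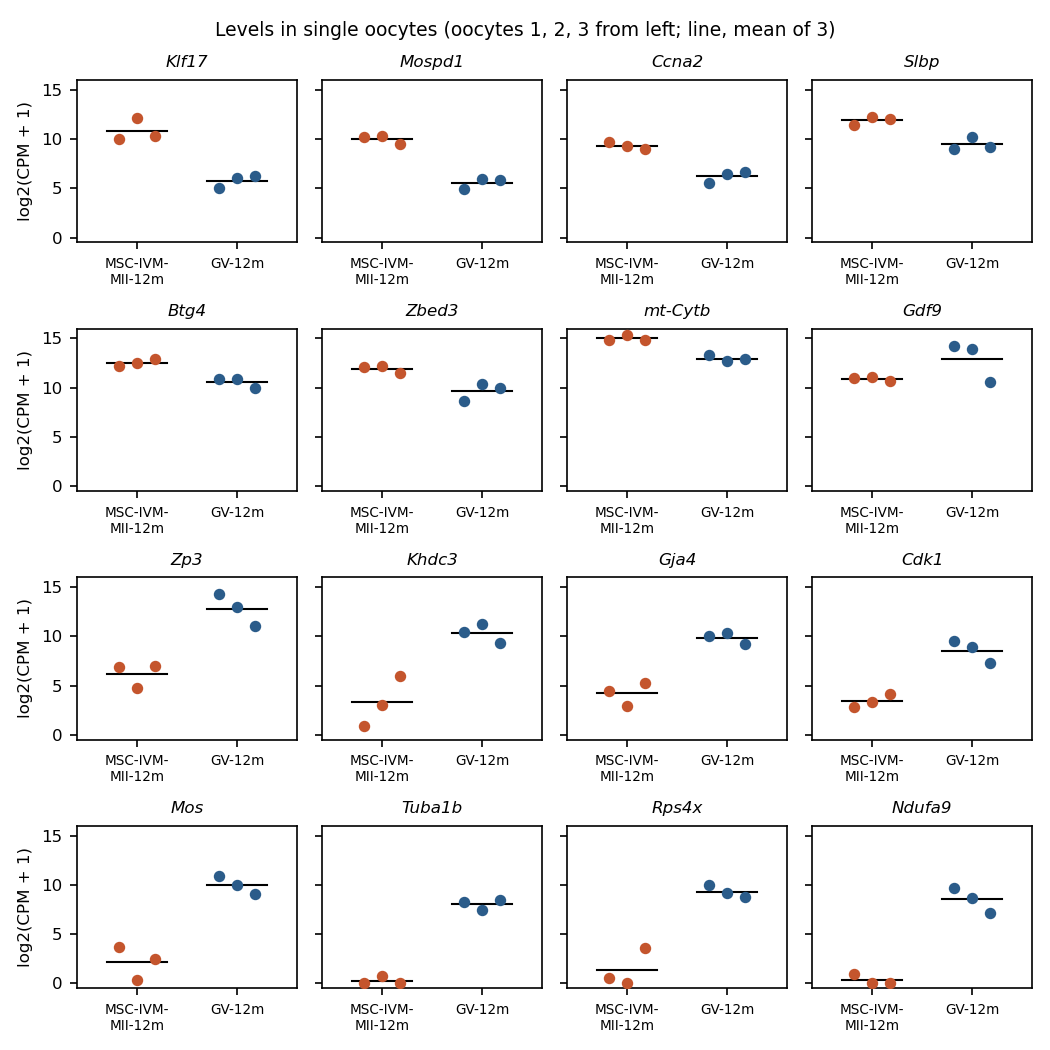
Levels of 16 genes as log2(CPM + 1) in the 3 MSC-IVM-MII-12m oocytes (left in each panel) and the 3 GV-12m oocytes (right), with a line at the group mean. The groups do not overlap in any panel but Gdf9, where GV-12m oocyte 3 lies at the level of the co-cultured oocytes.

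The 3′ ends of the messages differed between genes that were higher and genes that were lower. Windows of 30 bases near the annotated 3′ end are shown, read along the transcript from GENCODE release M21 on GRCm38. Of these genes, 4 were higher and hold a CPE, 2 were lower in spite of a CPE, and 2 were lower with no match to the forms given next. They were picked as examples, and no higher gene without a match is printed, although most higher genes have none. Other U-rich forms were not searched, so a gene without a match may still hold a CPE. Capitals mark a CPE, searched as TTTTAT or TTTTAAT in the last 100 bases, or a polyadenylation hexamer, searched as AATAAA or ATTAAA in the last 40 bases. Both were searched on the transcript's own strand, and they may overlap.
Mospd1, higher, chrX:53345025-53345054, minus strand: tttttaagtTTTTATttattcaAATAAAtt
Lzts1, higher, chr8:69132679-69132708, minus strand: atgtTTTTATttatgAATAAAgaatgccat
Setdb1, higher, chr3:95323545-95323574, minus strand: catgTTTTATttaacctttaatatacttta
Cnot7, higher, chr8:40493040-40493069, minus strand: agtcttaaggtacaTTTTATatcAATAAAa
Bub1b, lower, chr2:118641558-118641587, plus strand: ctgtgtaTTTTATAATAAAatagtttttgt
Arpp19, lower, chr9:75060275-75060304, plus strand: cccgAATAAAtggatctacctaatTTTTAT
Mos, lower, chr4:3870661-3870690, minus strand: atatttttaggaAATAAAgttaccacgaac
Ndufa9, lower, chr6:126821721-126821750, minus strand: atttggtataaatgagcacatagacaccta
These windows come from 1 annotated transcript per gene, and the end used in the oocyte may be another.

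A CPE lay in the last 100 bases of 19.2% of the 10748 measured protein-coding genes with an annotated 3′ untranslated region (UTR), and of 16.9% of all 20644 annotated ones. It was present in 28.4% of the genes that were at least 2-fold higher in MSC-IVM-MII-12m oocytes, in 21.9% of those within 2-fold and in 12.9% of those at least 2-fold lower. The 15 named genes with the largest higher differences held it in 3 cases (20%), near the 19.2% of all measured genes. Those with the 15 largest lower differences held it in 0 cases. Genes with the motif had a median difference of -0.06, genes without it -0.78. Length went with the difference as well. With the genes split into 4 classes of equal size, from the shortest 3′ UTRs (median 178 bases) to the longest (median 3025 bases), median differences were -1.54, -0.75, -0.25 and -0.25. Both could be looked at together, although only the UTR itself was searched and a UTR under 100 bases offered less sequence. Within the class of shortest 3′ UTRs the median was -0.29 with a CPE and -1.77 without, and within the longest class 0.036 and -0.31. The 3′ UTRs that hold the motif are also poorer in G and C. Over 4 such classes from the least G and C to the most, the median difference with a CPE was 0.14, 0.0058, -0.29 and -0.41, and without one -0.22, -0.37, -0.97 and -1.47, and genes with the motif had the higher median in each class. These are medians over genes that share the same 6 libraries, and no test was made of them.

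**Figure D3:**
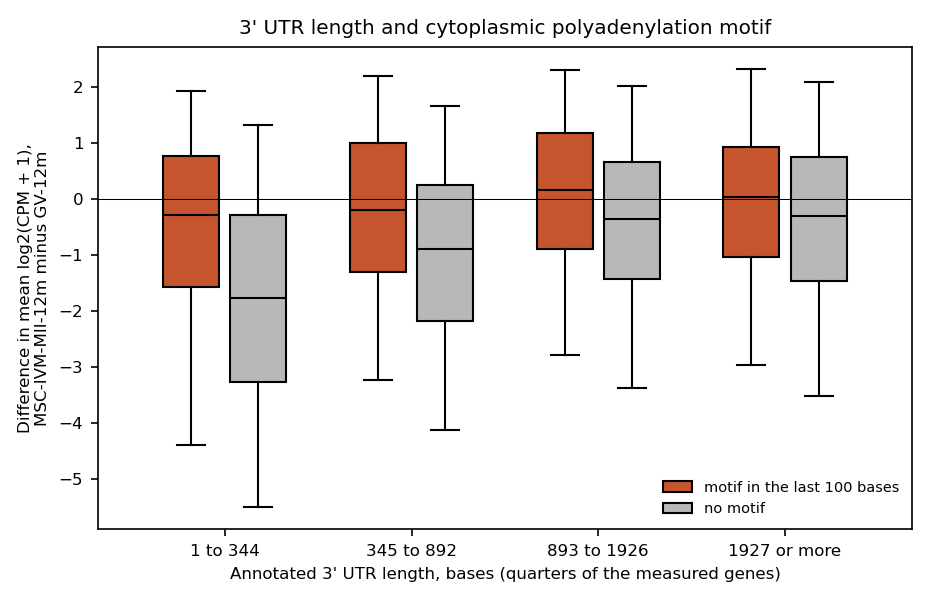
Differences MSC-IVM-MII-12m minus GV-12m on the log2(CPM + 1) scale for genes in 4 classes of annotated 3′ UTR length, with (left box of each pair) and without (right box) a CPE in the last 100 bases. Boxes span the middle of the genes with a line at the median and whiskers reach the 5th and 95th percentiles; the lowest median, -1.77, is that of short 3′ UTRs without the motif.

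Whole-transcript length showed how the single libraries bear on this. Among 4 equal classes, for the genes with the shortest transcripts (median 1280 bases), the median distance from the GV-12m mean was -1.74, -2.15 and -1.35 in MSC-IVM-MII-12m oocytes 1, 2 and 3, against 0.54, 0.14 and -0.67 in GV-12m oocytes 1, 2 and 3. The groups did not overlap there. For the genes with the longest transcripts (median 5902 bases) it was -0.87, 0.68 and -0.14 in co-cultured oocytes and -0.56, -0.010 and 0.63 in GV-12m oocytes, and the groups overlapped. Short messages were thus relatively lower in every co-cultured oocyte, while the level of long messages varied as much within a group as between the groups.

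Genes that drive meiosis were split. Cdk1, the kinase of maturation-promoting factor, was at 6.23, 8.72 and 17.0 CPM in MSC-IVM-MII-12m oocytes against 737, 468 and 152 CPM in GV-12m oocytes (difference -5.12). Arpp19, which restrains the phosphatase PP2A-B55 once phosphorylated, averaged 23.7 ± 6.09 CPM against 227 ± 83.7 CPM (-3.17). Cyclin mRNAs lay the other way. Ccna2, cyclin A2, was at 840, 613 and 491 CPM in co-cultured and at 46.2, 88.8 and 101.1 CPM in GV-12m oocytes (3.07). Ccnb1, cyclin B1, averaged 1057 ± 27.0 CPM against 576 ± 98.5 CPM, a difference of 0.89 that is under 2-fold although the groups did not overlap. Of 21 measured genes of the cyclin B-Cdk1 list, 4 were at least 2-fold lower and 4 at least 2-fold higher. Among all genes 41.7% were lower and 16.7% higher, so the higher count is near that share. Beside a median of -0.60 for all genes, that of the list was 0.64. That median was 0.076 within title prefixes, 0.16 without GV-12m oocyte 1 and 0.23 without co-cultured oocyte 2.

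Within the Mos-MAPK cascade, Mapk3, the kinase ERK1, was lower (37.3 ± 29.0 CPM against 324 ± 165 CPM, difference -3.57) and Map2k1, the kinase MEK1 directly above it, was higher (400.4 ± 158 CPM against 67.6 ± 53.6 CPM, difference 2.85). For the anaphase-promoting complex, 10 of 21 measured genes were lower, near the 41.7% of all genes, and 2 were higher. Its ubiquitin-conjugating enzyme Ube2c was at 20.03, 3.74 and 90.8 CPM in MSC-IVM-MII-12m and at 826, 479 and 198 CPM in GV-12m oocytes (-4.36). The activator Fzr1, which holds the prophase arrest, averaged 6.02 ± 4.35 CPM against 68.1 ± 42.7 CPM (-3.34). Bub1b, the checkpoint protein BubR1, was at 0, 46.9 and 8.69 CPM in co-cultured and at 78.0, 107 and 175 CPM in GV-12m oocytes (-3.88, and -2.41 without co-cultured oocyte 1). In co-cultured oocyte 1, the shallowest library, 3 counts would correspond to 1.34 CPM.

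Spindle and cohesion genes had members on both sides. For spindle assembly 14 of 38 measured were lower and 12 higher, and for cohesion 3 of 22 were lower and 7 higher. Of all genes 41.7% were lower and 16.7% higher. Beside Tuba1b, the beta-tubulin genes Tubb5 (1.51 ± 1.84 CPM against 221 ± 137 CPM, difference -6.56) and Tubb4b (264 ± 180 CPM against 3856 ± 2742 CPM, difference -3.82) were lower. Tubulin genes are near-identical copies whose reads can be split between them, so their single values are uncertain. Sgo1, a shugoshin that shields cohesin, was at 70.3, 72.7 and 35.3 CPM in MSC-IVM-MII-12m oocytes against 6.89, 22.1 and 18.4 CPM in GV-12m oocytes (1.92). Pttg1, securin, was at 10486, 4417 and 5606 CPM in co-cultured and at 4758, 3031 and 668 CPM in GV-12m oocytes. Its difference was 1.58, and 0.75 without GV-12m oocyte 3.

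Oocyte-specific genes were also divided. Zona pellucida and sperm-binding genes were lower: 7 of 10 measured were at least 2-fold lower with no overlap and 0 were higher (median -2.53). Among all genes, 28.0% were lower with no overlap and 16.7% were higher. Zp3, the zona glycoprotein that binds sperm in the mouse, was at 113, 25.6 and 125 CPM in MSC-IVM-MII-12m oocytes and at 20725, 7903 and 2062 CPM in GV-12m oocytes. Both groups spread widely, but the lowest GV-12m oocyte still lay far above the highest co-cultured oocyte. Zp1 averaged 61.8 ± 44.6 CPM against 911 ± 319 CPM (-4.11), Zp2 averaged 51.3 ± 16.1 CPM against 339.9 ± 69.4 CPM (-2.73), and Izumo1r, which encodes the sperm receptor Juno, 76.7 ± 29.0 CPM against 916 ± 891 CPM (-3.16).

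Figla, the transcription factor that switches on the zona genes in growing oocytes, had no count in any MSC-IVM-MII-12m oocyte and was at 287, 117 and 31.1 CPM in GV-12m oocytes. Against a floor of 3 counts per library it was at least 186-fold lower. Of 12 measured oocyte transcription factors, 3 were lower and 1 was higher, beside 41.7% and 16.7% of all genes. Nobox, a homeobox factor of oocyte growth, averaged 323 ± 145 CPM against 781 ± 369 CPM (-1.29), a difference that was -0.84 without co-cultured oocyte 2 and -0.93 without GV-12m oocyte 2. Obox2, at 1352, 2572 and 2269 CPM in co-cultured and 6174, 3177 and 1655 CPM in GV-12m oocytes, overlapped.

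Among oocyte-secreted factors, Fgf8 was lower (5.53 ± 5.80 CPM against 175 ± 84.0 CPM, difference -5.05) and so was Plat, tissue plasminogen activator, a message known in mouse oocytes for tail lengthening at maturation. Plat was at 0, 126 and 23.1 CPM in MSC-IVM-MII-12m oocytes and at 168, 527 and 629 CPM in GV-12m oocytes (-4.72, but -2.79 without co-cultured oocyte 1 and -6.29 without co-cultured oocyte 2). Tgfb2 was at 1363, 2819 and 2524 CPM in co-cultured and at 511, 679 and 192 CPM in GV-12m oocytes (2.39), and Rspo2, an enhancer of Wnt signalling, averaged 665 ± 91.3 CPM against 139 ± 32.3 CPM (2.27). Gdf9, the growth factor that acts on cumulus cells, was at 2067, 2212 and 1609 CPM in co-cultured oocytes and at 18918, 15548 and 1558 CPM in GV-12m oocytes. GV-12m oocyte 3 thus matched the co-cultured oocytes, and the difference of -1.99 was -3.14 without it and -1.32 within title prefixes.

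The subcortical maternal complex, a protein assembly under the oocyte membrane, showed opposite values for its members. Khdc3 was at 0.89, 7.20 and 60.0 CPM in MSC-IVM-MII-12m oocytes and at 1416, 2449 and 656 CPM in GV-12m oocytes (-7.07). Ooep averaged 153 ± 115 CPM against 3405 ± 3396 CPM (-4.25) and Tle6 136 ± 100.1 CPM against 606 ± 133 CPM (-2.65, and -1.63 without co-cultured oocyte 2). Zbed3 was at 4350, 4713 and 2804 CPM in co-cultured and at 390, 1285 and 1018 CPM in GV-12m oocytes (2.27). Nlrp5, the member known as MATER, averaged 71.0 ± 24.1 CPM against 122 ± 32.2 CPM, which overlapped and was under 2-fold (-0.79). This list also holds close paralogs of the Nlrp family whose reads may be shared. Of its 15 measured genes, 7 were lower and 3 higher, which is near the 41.7% and 16.7% of all genes.

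Messages that act on other messages had members on both sides. Btg4, the adaptor that brings the CCR4-NOT deadenylase to maternal mRNA, was at 4743, 5914 and 7538 CPM in MSC-IVM-MII-12m oocytes and at 1868, 1914 and 1025 CPM in GV-12m oocytes (1.95). Cnot7, a catalytic subunit of that deadenylase, averaged 377 ± 76.9 CPM against 153 ± 16.8 CPM (1.28), and Cnot4, a ubiquitin ligase linked to the complex, 249 ± 93.3 CPM against 45.5 ± 18.3 CPM (2.44). Cnot6, another catalytic subunit, overlapped at 0.445, 15.5 and 0.592 CPM in MSC-IVM-MII-12m oocytes and 0.667, 9.66 and 119 CPM in GV-12m oocytes. Its difference was -1.93, and -0.33 without GV-12m oocyte 3, which held nearly all of its GV level. Dazl, an RNA-binding translation activator, was at 1193, 2724 and 2321 CPM in co-cultured and at 769, 809 and 268 CPM in GV-12m oocytes (1.83). Btg4 and Dazl are known in mouse oocytes as stored messages that are translated during maturation.

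The lists as wholes did not go one way; their counts are to be read against 41.7% lower and 16.7% higher among all genes. For deadenylation 6 of 25 measured genes were lower and 6 higher, and 1 and 5 of these had no overlap. With no overlap, 28.0% of all genes were lower and 9.99% higher. For terminal uridylation, decapping and decay 16 of 37 were lower and 7 higher, with Lsm4 (2.37 ± 4.11 CPM against 104 ± 23.8 CPM) and the exosome subunit Exosc5 (2.65 ± 2.46 CPM against 95.8 ± 36.6 CPM) among the lower. For mRNA storage and poly(A) binding 12 of 31 were lower and 10 higher. Zar1l, an oocyte mRNA-binding protein, averaged 9.06 ± 3.75 CPM in MSC-IVM-MII-12m and 651 ± 358 CPM in GV-12m oocytes (-5.92). Its relative Zar1 averaged 709 ± 212 CPM against 2314 ± 1589 CPM (-1.55, and -1.03 without GV-12m oocyte 2), and the nuclear poly(A) polymerase Papola 20.5 ± 29.4 CPM against 114 ± 15.95 CPM (-3.64, and -2.42 from the ratio of group means).

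The lowest list was that of the cytosolic ribosomal proteins: 77 of 81 genes were at least 2-fold lower in MSC-IVM-MII-12m oocytes, 75 of them with no overlap (median -4.72). The shares among all genes were 41.7% lower and 28.0% lower with no overlap. Together the genes of this list took 0.53%, 0.18% and 0.42% of the counts in co-cultured oocytes 1, 2 and 3, against 2.57%, 1.74% and 2.47% in GV-12m oocytes. Rps4x was at 0.445, 0 and 11.5 CPM in co-cultured and at 1006, 589 and 451 CPM in GV-12m oocytes. Rps19, at 0.89, 0.831 and 0.79 CPM against 380, 225 and 314 CPM, differed little within each group. The exception was Rps27l, a paralog of Rps27 known as a p53 target, which was higher, at 1414, 685 and 888 CPM in co-cultured and 515, 271 and 185 CPM in GV-12m oocytes (1.68). Ribosomal protein genes have many processed pseudogenes, so reads may be split between copies and single values are uncertain.

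Short 3′ UTRs go with this list, whose median is 89 bases against 892 bases for all measured genes. A CPE lay in the last 100 bases of the 3′ UTR in 9 of 81, and most of these UTRs are shorter than that window. Their mRNAs are also known for a start made of C and T, the terminal oligopyrimidine tract. In the RefSeq windows on GRCm38.p6, which matched 60 of the 81 genes, a run of at least 7 C or T letters within 4 bases of the annotated start was found in 46.7% of them and in 14.9% of all 27025 genes with a window. The run did not separate the genes: the median difference was -4.50 with it and -4.46 without.

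Translation initiation factors were lower for 18 of 38 and higher for 5, which is near the 41.7% and 16.7% of all genes. Eif3g was at 8.90, 0.277 and 8.49 CPM in MSC-IVM-MII-12m and at 865, 450 and 250 CPM in GV-12m oocytes (-6.55). Eif3f had 2 counts in all co-cultured oocytes together (exact Poisson 95% interval 0.242 to 7.22) against 1103 (1039 to 1170) in GV-12m oocytes. Eif1b, a start-codon selection factor, stood among those near 0 (0.037), at 866 ± 340 CPM against 979 ± 693 CPM.

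Mitochondrial proteins are made from nuclear and from mitochondrial genes, and the sources lay on opposite sides. Of the nuclear complex I subunits, 33 of 37 were at least 2-fold lower (median -4.28), of the nuclear subunits of complexes II to V 34 of 41 (median -3.40), and of the mitochondrial ribosomal proteins 62 of 78 (median -2.93). These counts stand beside 41.7% lower among all genes. Ndufa7 had 0, 0.138 and 1.97 CPM in MSC-IVM-MII-12m oocytes against 316, 132 and 87.2 CPM in GV-12m oocytes. Uqcrq, a complex III subunit, averaged 4.26 ± 2.20 CPM against 443 ± 305.9 CPM (-6.25). Mrpl12 was at 0, 3.19 and 2.57 CPM in co-cultured and at 535, 321 and 238 CPM in GV-12m oocytes (-7.13). Genes of mitochondrial import and dynamics were lower for 25 of 33, with the pore Tomm40 at 1.74 ± 1.502 CPM against 72.8 ± 18.8 CPM and the small carrier Timm9 at 19.2 ± 18.1 CPM against 743 ± 470 CPM. Ndufa10 was the complex I subunit on the higher side, at 955, 1184 and 1003 CPM in co-cultured oocytes against 444, 272 and 141 CPM in GV-12m oocytes (2.01).

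Of the 13 mRNAs encoded by mitochondrial DNA, 12 were at least 2-fold higher in MSC-IVM-MII-12m oocytes and 11 of them did not overlap (median 1.93). For all genes the shares were 16.7% higher and 9.99% higher with no overlap. All mitochondrially encoded genes together took 13.2%, 11.4% and 8.17% of the counts in co-cultured oocytes 1, 2 and 3, against 2.45%, 1.90% and 3.65% in GV-12m oocytes. mt-Cytb was at 29022, 40824 and 29594 CPM in co-cultured and at 10082, 6618 and 7588 CPM in GV-12m oocytes (2.04). mt-Co1 was at 14105, 19612 and 7821 CPM against 2859, 2640 and 4116 CPM (2.04), and mt-Atp6 at 30405, 26607 and 19620 CPM against 8343, 5070 and 5918 CPM (1.995). Differences of the others ran up to 2.76 for mt-Nd3, a complex I subunit. mt-Nd6, the mRNA of the other strand, had the smallest of the 12, 1.04, which was 0.80 to 0.97 without co-cultured oocyte 2, co-cultured oocyte 1 or GV-12m oocyte 2. mt-Nd4l had only 34 counts in co-cultured oocytes and 0 in GV-12m oocytes, and its difference of 1.62 was 0.81 without co-cultured oocyte 1. mt-Co3, at 1404, 582 and 95.6 CPM against 344, 124 and 363 CPM, overlapped. Because these messages fill a larger share of the co-cultured libraries, levels were recomputed with them left out of every total, and the lower median of the cytosolic ribosomal proteins was then -4.59.

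Most proteasome and TRiC genes were lower, beside 41.7% lower and 16.7% higher among all genes. Of 37 proteasome subunits 26 were lower and 3 higher (median -2.04), led by the catalytic subunit Psmb5, at 0, 0 and 5.13 CPM in MSC-IVM-MII-12m oocytes against 640, 227 and 96.5 CPM in GV-12m oocytes (-7.05). Psma7 overlapped at 3311 ± 1871 CPM against 1869 ± 843 CPM. Of the 8 subunits of the chaperonin TRiC, which folds tubulin and actin, 6 were lower, with Cct5 at 54.6 ± 9.01 CPM against 792 ± 243 CPM (-3.80). Hspa8, the constitutive Hsp70, was at 19.6, 3.19 and 23.7 CPM in co-cultured and at 291, 602 and 1162 CPM in GV-12m oocytes (-5.52), whereas Hsp90aa1 overlapped.

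In metabolism, 12 of 18 glycolytic genes were lower and 0 higher, beside 41.7% and 16.7% of all genes. Tpi1, triosephosphate isomerase, was at 0, 20.5 and 30.8 CPM in MSC-IVM-MII-12m and at 295, 186 and 211 CPM in GV-12m oocytes (-4.69, and -3.12 without co-cultured oocyte 1). Ldha had no count in any co-cultured oocyte and 13.1, 19.2 and 437 CPM in GV-12m oocytes, so the high value came from oocyte 3, the one with granulosa cell markers, and the share of those cells in it was not tested. Ldhb, the lactate dehydrogenase form that oocytes store, overlapped at 6216, 2280 and 10773 CPM against 22583, 14178 and 2563 CPM. Among glutathione and redox genes 18 of 31 were lower and 2 higher, with the lipid peroxidase Gpx4 at 9.97 ± 6.79 CPM against 402.01 ± 258 CPM (-5.29) and the glutaredoxin Glrx at 57.4 ± 41.9 CPM against 1393 ± 662 CPM (-4.69). For cholesterol synthesis 12 of 18 were lower and 3 higher. Fdft1, squalene synthase, averaged 73.7 ± 20.3 CPM against 1233 ± 541 CPM (-3.96) and Hsd17b7 98.7 ± 63.5 CPM against 19.8 ± 3.18 CPM (1.98). Lysosome and autophagy genes were lower for 20 of 37, among them the cathepsin Ctsl (2.90 ± 5.02 CPM against 75.6 ± 40.8 CPM).

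Chromatin genes were mixed. Of 28 histone methylation genes, 11 were at least 2-fold higher and 1 was lower, beside 16.7% and 41.7% of all genes. The median of 0.65 was 0.13 within title prefixes, 0.37 without GV-12m oocyte 1 and 0.40 without co-cultured oocyte 2. Among the higher was Setdb1, a methyltransferase for histone H3 lysine 9, at 114, 405 and 124 CPM in MSC-IVM-MII-12m oocytes and 18.4, 54.7 and 41.4 CPM in GV-12m oocytes (2.33). Kmt2d was at 24.0, 211 and 55.3 CPM against 9.33, 6.90 and 10.4 CPM (2.77, and 1.70 with TPM). Ezh2, of Polycomb complex 2, averaged 414 ± 256 CPM against 181 ± 77.5 CPM. Its difference of 1.13 was 0.66 without co-cultured oocyte 2, 0.73 without GV-12m oocyte 1 and 0.62 within title prefixes. Slbp, the stem-loop binding protein of histone mRNAs, was at 2812, 4975 and 4253 CPM in co-cultured and at 526, 1151 and 601 CPM in GV-12m oocytes (2.45), and Chaf1b, a chromatin assembly factor, averaged 2.60 ± 3.92 CPM against 72.6 ± 39.9 CPM (-4.80). The linker histone H1foo of oocytes averaged 3746 ± 3505 CPM against 17151 ± 9664 CPM and overlapped. Zfp57, which guards imprints, averaged 1228 ± 246 CPM against 251 ± 27.2 CPM (2.27). Dnmt3l, the partner of the de novo methyltransferases, was lower (45.3 ± 38.7 CPM against 221 ± 99.1 CPM) and Dnmt1 overlapped.

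Coupling to the follicle cells is carried in the mouse oocyte by the connexin Gja4. It was at 21.4, 6.37 and 37.9 CPM in MSC-IVM-MII-12m oocytes and at 1051, 1264 and 599 CPM in GV-12m oocytes (-5.64). Gja1, the connexin of granulosa cells, had no count in co-cultured oocytes and was at 8.00, 6.52 and 672 CPM in GV-12m oocytes. Only 10 of the 29 cumulus and granulosa markers passed the low-count filter, and 7 of these were lower. Their median of -2.04 was -0.84, under 2-fold, with no filter, -1.12 with a pseudocount of 5 and -1.26 with TPM. Calcium genes had members on both sides, with the calmodulin gene Calm2 lower (72.9 ± 19.1 CPM against 1179 ± 401 CPM) and the mitochondrial calcium channel Mcu higher (432 ± 134 CPM against 71.6 ± 32.8 CPM). Bcl2l10, a survival factor of the oocyte, was at 7013, 11551 and 8872 CPM in co-cultured and at 3428, 3347 and 1999 CPM in GV-12m oocytes (1.66). For DNA damage and repair, 18 of 36 were lower and 9 higher, beside 41.7% and 16.7% of all genes. Xrcc1, a scaffold of single-strand break repair, averaged 2.06 ± 2.33 CPM against 60.4 ± 36.2 CPM (-4.32), and the checkpoint kinase Chek1 357 ± 54.5 CPM against 114 ± 38.5 CPM (1.69).

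**Figure D4:**
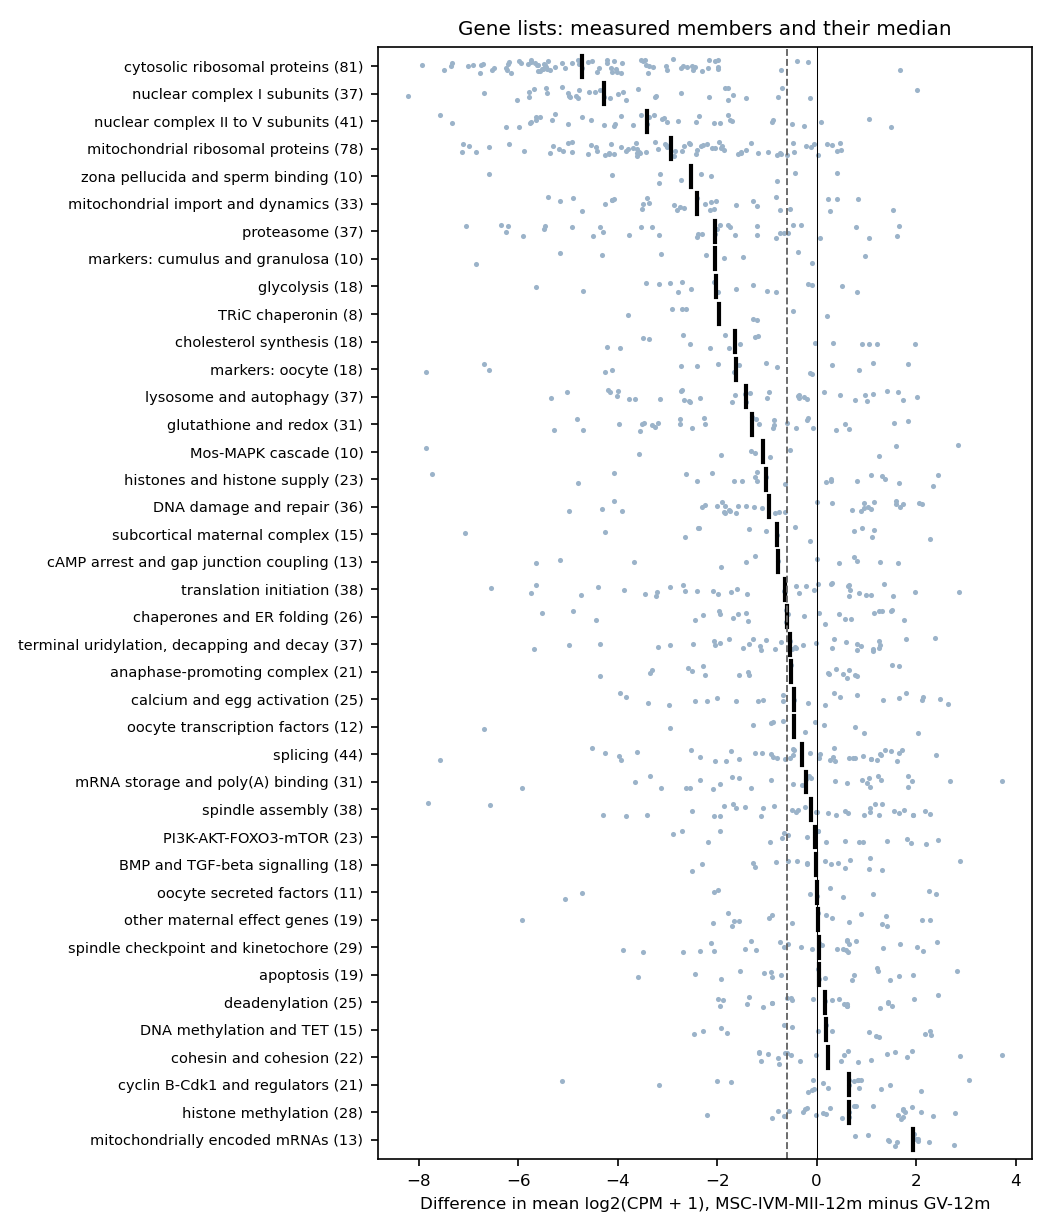
Differences MSC-IVM-MII-12m minus GV-12m on the log2(CPM + 1) scale for the measured members of 40 gene lists (points, number of members in brackets) with the list median (bar) and the median of all genes at -0.60 (dashed line). Medians run from -4.72 for cytosolic ribosomal proteins to 1.93 for mitochondrially encoded mRNAs.

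Oocytes matured without co-culture can be set beside these values, although both comparisons use the same GV-12m oocytes and so are not independent of each other. In IVM-MII-12m oocytes, 39.0% of the genes were at least 2-fold lower than in GV-12m oocytes and 16.1% at least 2-fold higher, and 25.5% were lower with no overlap. The median of the cytosolic ribosomal proteins was -4.72 with co-culture and -3.87 without, that of the nuclear complex I subunits -4.28 and -2.95, of the zona list -2.53 and -2.36, and of the mitochondrially encoded mRNAs 1.93 and 1.46. Klf17 was at 1001, 4487 and 1288 CPM in MSC-IVM-MII-12m oocytes against 358, 534 and 536 CPM in IVM-MII-12m oocytes. Mospd1 was at 1210, 1238 and 704 CPM against 247, 469 and 318 CPM. The groups did not overlap for either gene, though both were chosen by these same MSC-IVM-MII-12m values, which favours such a gap. Btg4, by contrast, was at 4743, 5914 and 7538 CPM with co-culture against 6348, 6324 and 10328 CPM without, and Mos at 12.0, 0.277 and 4.54 CPM against 1.33, 0 and 5.08 CPM. Set directly against each other, MSC-IVM-MII-12m and IVM-MII-12m oocytes differed at least 2-fold in 15.2% of the genes on the lower side and 10.3% on the higher side, with no overlap in 2.89% and 1.99%.

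The same comparison at 6 weeks uses other libraries throughout. There 35.2% of the genes were at least 2-fold lower in MSC-IVM-MII-6wk than in GV-6wk oocytes and 21.4% at least 2-fold higher, 27.3% and 12.3% with no overlap. Across the 12037 genes the differences at 12 months and at 6 weeks gave a Pearson's r of 0.844 and a rank correlation (Spearman's rho) of 0.81, and 79.2% had the same sign. Genes are not independent replicates, and the normalisation over all 18 libraries is common to both. Age goes with the prefix of the sample titles, which the labels do not explain, so age and prefix cannot be told apart. List medians at 12 months and 6 weeks were -4.72 and -4.19 for cytosolic ribosomal proteins, 1.93 and 1.51 for mitochondrially encoded mRNAs, -1.65 and 0.77 for cholesterol synthesis, and 0.65 and 1.62 for histone methylation. Of the 13 mitochondrially encoded mRNAs, 10 were at least 2-fold higher at 6 weeks, but 1 with no overlap, against 11 at 12 months. The mitochondrial share was 3.03%, 8.65% and 7.66% in MSC-IVM-MII-6wk oocytes 1, 2 and 3. Oocyte 1 thus lay within the GV-6wk range, 0.92% to 3.70%. The 12-month median for cholesterol synthesis was -1.03 without co-cultured oocyte 1 or GV-12m oocyte 3, and under 2-fold with a pseudocount of 5 (-0.90) and with TPM (-0.95). Mos was at 641, 1.00 and 8.61 CPM in MSC-IVM-MII-6wk and at 952, 798 and 842 CPM in GV-6wk oocytes, so 1 co-cultured oocyte of that age lay near the GV level, which no MSC-IVM-MII-12m oocyte did.

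**Figure D5:**
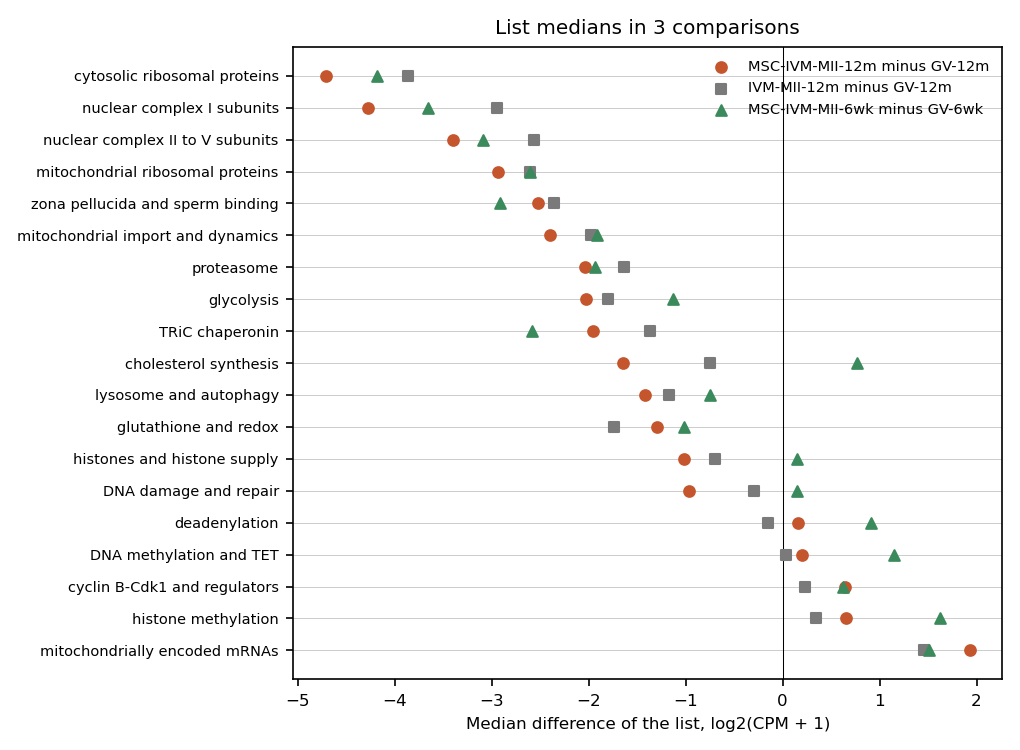
Median difference of 19 gene lists on the log2(CPM + 1) scale for MSC-IVM-MII-12m minus GV-12m (circles), IVM-MII-12m minus GV-12m (squares) and MSC-IVM-MII-6wk minus GV-6wk (triangles). The circles and squares share the GV-12m oocytes; cholesterol synthesis is the list whose 12-month circle (-1.65) and 6-week triangle (0.77) lie farthest apart.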

How the data were processed

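Single mouse oocytes were sequenced, 18 libraries in 6 groups of 3, all of which entered the scaling. Per the submitters' processing notes the tools were FastQC 0.11.8, Trim Galore 0.4.5, TopHat2 2.1.1 and Cufflinks, and the builds mm10 and GRCm38.p5. Per the file headers each deposited table gives expected counts, TPM and FPKM for 47069 genes, while their estimating tool is not given in the sources used here. Such counts share reads between similar genes, so values of close paralogs and genes with pseudogenes are uncertain. FPKM as deposited were not used, and TPM as deposited served as an alternative and to rank levels.

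The deposited expected counts were rounded to whole numbers, scaled with TMM factors and filtered with filterByExpr in edgeR 4.0.16 (R 4.3.3), which left 12037 genes. Differences of mean log2(CPM + 1) were computed with NumPy 2.4.6 and pandas 2.3.3. The labels name no animal, so each group was 1 sample, and in place of a test between groups there are values per oocyte, SDs over oocytes and exact Poisson 95% intervals of summed counts (SciPy 1.17.1), which cover counting error only. A count of 0 was set against a floor of 3 counts per library. No pair of libraries within MSC-IVM-MII-12m or within GV-12m agreed within sampling noise, and other pairs were not compared. The steps were tested on simulated data. Symbols, coordinates and 3′ ends came from GENCODE release M21 on GRCm38, with 1 coding transcript per gene, the one with the longest coding sequence.

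Genes and lists were chosen with earlier results of these data known. Named genes were the 15 largest differences in each direction among genes with at least 20 CPM in the higher group, no overlap between the groups and a symbol of no predicted gene, and of each list the 3 largest differences and the member with the highest TPM. Not all of the 163 genes so chosen are described. Outside this rule, Zp2, Gdf9, Rspo2, Nlrp5, Ccnb1, Cnot7, Dazl, Ndufa10, Slbp, Dnmt1 and most of the mitochondrially encoded genes were chosen after their values were seen. The alternatives were other scalings, filters, pseudocounts and fold limits, thinning, and leaving out oocytes.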

Additional observations from a re-analysis of the deposited data

Results flagged for a closer look

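The list of subcortical maternal complex genes had medians of opposite sign at the 2 ages. Its median difference was -0.79 for MSC-IVM-MII-12m minus GV-12m and 0.51 for MSC-IVM-MII-6wk minus GV-6wk. Taken oocyte by oocyte against the mean of the GV group of the same age, the list median was -0.73, -0.55 and -0.29 in the MSC-IVM-MII-12m oocytes and 0.94, 0.050 and 0.31 in the MSC-IVM-MII-6wk oocytes. The values were all below 0 at 12 months and all above 0 at 6 weeks, 1 of them only just. The median of all genes was -0.60 at 12 months and -0.29 at 6 weeks, so the 12-month value lies near that of all genes, and without MSC-IVM-MII-12m oocyte 1 it was -0.29. The difference was not tested, and age and title prefix cannot be told apart.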

How the results depend on the processing

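No paired analysis was possible because the labels give no replicate numbers; title prefixes, shared in part, were used to average differences within them, without GV-12m oocyte 1. With a pseudocount of 5, 3198 genes were at least 2-fold lower in MSC-IVM-MII-12m than in GV-12m oocytes, against 5017, and the medians of the cytosolic and mitochondrial ribosomal proteins were -3.85 and -2.37. A pseudocount of 5 shrinks the differences of low genes by construction. With a limit of 4-fold, 2890 genes were lower and 540 higher, against 5017 and 2013. Leaving out each oocyte in turn gave 4782 to 5407 lower and 1763 to 2499 higher genes. The median of all genes, -0.60, was -0.75 and -0.28 with pseudocounts of 0.5 and 5, -0.31 with TPM, -0.35 with no filter, -0.43 from ratios of group means and -0.81 within title prefixes. Of the calls at the 2-fold limit, 64.7% to 75.9% were lower genes over the other alternatives, against 71.4%. Of 140 genes, 133 kept their direction under every alternative run, and of 42 list medians 28 did. Many of the 140 genes were chosen for no overlap or for a large difference, which favours a kept direction. The Mos-MAPK and histone list medians, -1.08 and -1.02, came under 2-fold in several settings (up to -0.42 and -0.41), as did cholesterol synthesis (-0.90 with a pseudocount of 5, -0.95 with TPM), lysosome and autophagy (-0.997 without MSC-IVM-MII-12m oocyte 1 or 2) and the cumulus and granulosa markers (-0.84 with no filter). Within title prefixes the median for translation initiation was -1.62, against -0.64. With the shallowest library at 1914072 counts, single counts in MSC-IVM-MII-12m oocyte 1 cannot be told from absence.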

Other observations

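Gene lists not described above had members on both sides. For splicing, 14 of 44 measured genes were at least 2-fold lower in MSC-IVM-MII-12m than in GV-12m oocytes and 11 higher, beside 41.7% and 16.7% of all genes. For chaperones and folding in the endoplasmic reticulum 11 of 26 were lower and 6 higher, with Ddit3, a transcription factor of the unfolded protein response, at a difference of -4.90. For apoptosis 5 of 19 were lower and 6 higher. Apaf1, the scaffold of the apoptosome, had a difference of 2.83, which was 2.17 to 3.52 when each oocyte was left out in turn.

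The largest higher difference of all measured genes, 6.92, belonged to Gm10925, a predicted gene chosen here after its values were seen. It was at 1431, 3344 and 2017 CPM in MSC-IVM-MII-12m oocytes and at 55.5, 2.63 and 25.4 CPM in GV-12m oocytes. Expected counts share reads between similar genes, and whether Gm10925 drew reads from another gene was not tested, so its value is uncertain.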
